A study of Rattus norvegicus with 4 samples.

Results

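Engr-HDm is the control protein of a study on TTF1 in PCCl3, an established line of rat thyroid follicular cells. The measurements described here are the 2 arrays, of 4 in the series, on which cells expressing Engr-HDm in the absence of doxycycline were hybridized against Engr-HDm cells kept in its presence and not expressing it. The 2 arrays were chosen by their titles, and all 38948 probes left after 12 control rows were dropped are included. The remaining 2 arrays compare, in the same way, cells expressing Engr-HD, the TTF1 antagonist, in the absence of doxycycline with Engr-HD cells that do not express it in the presence of the drug. All cells carried 2 constructs, pEFIN4 in Geneticin-selected clones and a pTRE2hyg construct with Engr-HD or Engr-HDm under conditional control. Per the labels, Geneticin was at 400 µg/mL for selection and 200 µg/mL for maintenance, and doxycycline was at 2 µg/mL. A population of transformed cells was split in 2 and cultured for 10 days, 1 pool with doxycycline and 1 without it. The label on RNA extraction gives 1 week without doxycycline at 50 % confluency. Nothing in the labels says how many clones were used or whether the 2 arrays of a construct came from separate cultures, so the spread between arrays and the p-values based on it may be technical.

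TTF1, also called Nkx2-1, is a transcription factor with a homeodomain, found in thyroid, lung and forebrain, that in thyroid follicular cells acts on genes for hormone synthesis. In the tetracycline-off system used here a transactivator, tTA, binds the promoter of the construct only when doxycycline is absent, so withdrawing the drug switches the protein on. Doxycycline is a tetracycline antibiotic that can also act on translation in mitochondria. A comparison with a control protein asks what a cell line shows after drug withdrawal when the antagonist itself is not made. The drug and the protein changed together in the Engr-HDm cells, so their effects cannot be told apart on these arrays.

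Each value is 1 deposited log ratio per probe and array, read as log2, with each array centred on its median. A positive value means higher in expressing cells if the ratio runs in the order in which the titles name the pair. This is likely, but no source states it. On array 1 the expressing cells were labelled with Cy5 and on array 2 with Cy3. No gene names accompany the probe IDs, which are Ensembl rat gene IDs or Operon numbers, so changes are described by probe and the thyroid identity of the cells could not be checked on marker genes. Neither brightness nor depth was part of the values used here, and with 2 arrays a construct the precision is limited.

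Most probes had a mean log ratio near 0 between Engr-HDm-expressing and non-expressing cells. Without brightness, an equal level and a signal too weak to read cannot be told apart at such probes. The mean of the 2 arrays was within 1.1-fold at 32949 probes, or 84.6% of all, and between 1.1-fold and 1.25-fold at 5309, or 13.6%. Another 619 probes lay between 1.25-fold and 1.5-fold, 61 between 1.5-fold and 2-fold, and 10 between 2-fold and 4-fold. The middle 50 % of the means ran from -0.04 to 0.03 on the log2 scale, and the lowest and highest 1 % of probes lay beyond -0.33 and 0.30. The Engr-HDm means had an SD over probes of 0.109, against 0.386 for the Engr-HD means. At least 1.25-fold on average and in the same direction on both arrays were 259 higher and 372 lower probes with Engr-HDm, against 4118 higher and 4021 lower probes with Engr-HD. The histogram of mean ratios shows the narrow Engr-HDm distribution inside the wider one of Engr-HD.

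**Figure D1:**
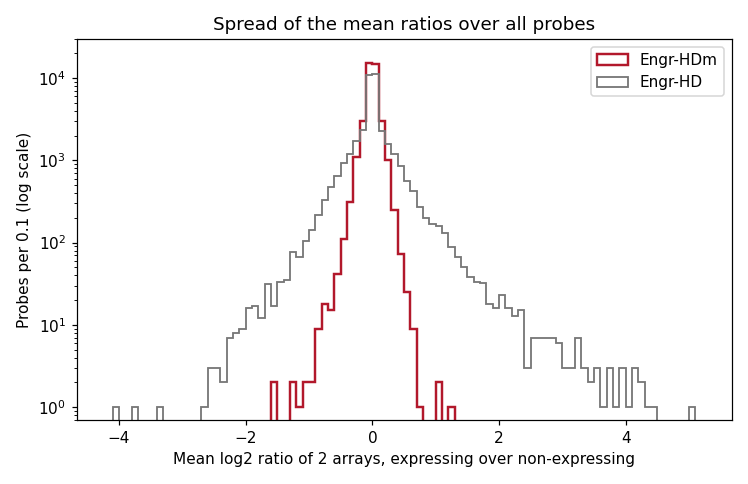
Number of probes (log scale) by mean log2 ratio, expressing over non-expressing, in steps of 0.1, for Engr-HDm (red) and Engr-HD (grey). The Engr-HDm means run from -1.55 to 1.25, and the Engr-HD means from -4.06 to 5.03.

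In the test of each probe against 0, 0 of 38948 probes (0%) passed with Engr-HDm (limma, adjusted p below 0.05). An unadjusted p below 0.05 was found at 5440, where uniform p-values would give 1947. The test had 3.92 degrees of freedom in total, so the lack of calls does not show that no probe changed. The smallest adjusted p was 0.0722. The median standard error of an Engr-HDm mean in this fit was 0.0367 on the log2 scale. When the array number, and with it the dye orientation, entered the fit as a replicate block, 5190 probes (13.3%) passed, 2619 higher (6.72%) and 2571 lower (6.60%). This blocked fit gives each probe 1 array effect, taken as equal in both constructs, and leaves 1 residual degree of freedom. The arrays did not fully meet this. Array 1 minus array 2, divided by 2, had an SD over probes of 0.121 for Engr-HDm, against 0.0933 for Engr-HD. How far this enters the blocked calls and p-values was not tested. The calls of the blocked fit were small in size, with a median of 1.15-fold, against 1.03-fold over all probes. Of the 5190, 4545 were under 1.25-fold and 71 were at least 1.5-fold. The same sign on both Engr-HDm arrays was found at 4954 or 95.5%, against 53.2% of all probes. Probes of such size mostly agree in sign, called or not. The share was 87.5% of all probes between 1.1-fold and 1.25-fold, and 91.0% between 1.25-fold and 1.5-fold. The agreement is therefore no separate check of the calls, which rest on the same arrays.

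Few probes had a large Engr-HDm mean, and the highest and lowest read alike on both arrays. Probe ENSRNOG00000029719, an Ensembl rat gene ID, read 1.27 and 1.23 on the Engr-HDm arrays, against -0.03 and 0.00 on the Engr-HD arrays. It was high on both Engr-HDm arrays and near 0 on both Engr-HD arrays, with no overlap. Its Engr-HDm mean of 1.25 ± 0.03 (SD, n = 2 arrays), or 2.38-fold higher, had a 95% interval from 1.17 to 1.33 and missed the threshold (limma, adjusted p = 0.0722, and 0.00361 with the replicate block). Engr-HD minus Engr-HDm was -1.26 ± 0.04 (SE), and this difference passed (limma, adjusted p = 0.00151). This probe, like the others named below, was picked for an extreme Engr-HDm mean with the same direction on both arrays. The agreement of the Engr-HDm arrays, the separation from the Engr-HD arrays and the size of the difference are therefore partly set by the choice. The 95% interval makes no allowance for it.

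The second highest probe, ENSRNOG00000021885, read 1.13 and 1.06 on the Engr-HDm arrays, against -0.255 and -0.282 on the Engr-HD arrays. It was thus higher in expressing cells on both Engr-HDm arrays and lower on both Engr-HD arrays. The Engr-HDm mean was 1.10 ± 0.05 (SD, n = 2 arrays), or 2.14-fold higher (limma, adjusted p = 0.0722, and 0.00361 with the replicate block). The Engr-HD mean was -0.27 ± 0.02 (SD, n = 2 arrays) and passed as a fall (limma, adjusted p = 0.00858). The constructs differed by -1.36 ± 0.05 (SE) at this probe (limma, adjusted p = 0.00161).

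The lowest probe, ENSRNOG00000019661, read -1.43 and -1.67 on the Engr-HDm arrays, against -0.50 and -0.45 on the Engr-HD arrays. All 4 arrays were below 0, and both Engr-HDm arrays lay below both Engr-HD arrays. The Engr-HDm mean was -1.55 ± 0.17 (SD, n = 2 arrays), or 2.93-fold lower (limma, adjusted p = 0.0722, and 0.00512 with the replicate block). The Engr-HD mean of -0.47 passed as a fall (limma, adjusted p = 0.0132), and the difference of 1.08 ± 0.10 (SE) passed too (limma, adjusted p = 0.00731).

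Operon probe R003532_01 came next, with -1.47 and -1.61 on the Engr-HDm arrays, against -0.576 and -0.575 on the Engr-HD arrays. Its readings had the same order as those of ENSRNOG00000019661, with all 4 arrays below 0 and the Engr-HDm arrays lowest. The Engr-HDm mean was -1.54 ± 0.10 (SD, n = 2 arrays), or 2.9-fold lower (limma, adjusted p = 0.0722, and 0.00361 with the replicate block). The Engr-HD fall passed (limma, adjusted p = 0.00275), as did the difference between constructs of 0.96 ± 0.06 (SE; limma, adjusted p = 0.00393). With all arrays scaled to an equal median absolute deviation, R003532_01 and ENSRNOG00000019661 passed with Engr-HDm (limma, adjusted p = 0.0454 and 0.0214). The plot of the 4 probes shows their readings array by array.

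**Figure D2:**
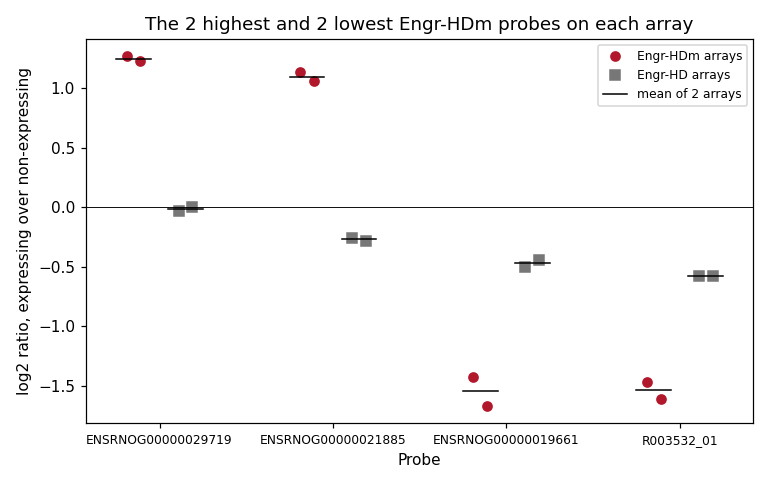
Log2 ratio, expressing over non-expressing (vertical axis), at the 2 highest and 2 lowest Engr-HDm probes, with 1 red point per Engr-HDm array, 1 grey square per Engr-HD array and a bar at the mean of 2 arrays. The Engr-HDm points lie between 1.06 and 1.27 or between -1.67 and -1.43, farther from 0 than every Engr-HD point of the same probe. The probes were picked for their Engr-HDm means, so this order is partly set by the choice.

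In all, 10 probes reached 2-fold on average, 3 higher and 7 lower. Of these, 9 (0.0231% of all probes) had the same direction on both Engr-HDm arrays, 3 higher (0.00770%) and 6 lower (0.0154%). Besides the 4 described, an Operon probe beginning Rn3 read 1.21 and 0.87 on the Engr-HDm arrays, against -0.29 and -0.36 on the Engr-HD arrays. Another beginning Rn3 read -1.15 and -1.28 with Engr-HDm, against -0.60 and -0.46 with Engr-HD. An Ensembl probe read -1.09 and -0.99 with Engr-HDm, against -0.79 and -0.67 with Engr-HD. These 3 were therefore also alike on both arrays of each construct.

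The other 2 of the 9 probes, both with Ensembl IDs, owed their mean mostly to array 2. One read -0.30 and -2.08 with Engr-HDm, against 0.715 and -1.105 with Engr-HD, and the other -0.11 and -2.32, against 0.93 and -1.10. At both, array 2 was far below array 1 with either construct. Their SDs of 1.255 and 1.563 exceeded their Engr-HDm means of -1.19 and -1.22 in size. The limma adjusted p-values were 0.573 and 0.65, against 0.00361 and 0.00512 with the replicate block. The block takes the gap between the arrays as equal in both constructs, so the smaller p-values rest on that assumption.

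At 1.5-fold, 68 probes (0.175% of all) had the same direction on both Engr-HDm arrays, 14 higher (0.0359%) and 54 lower (0.139%). The higher probes had a median of 0.65 and the lower ones of -0.72 on the log2 scale. On the higher side the probe just inside the limit stood at 0.60 and the one just outside at 0.58, and on the lower side these were -0.59 and -0.58. The gap between the 2 arrays had a median of 0.0875 among the higher probes and of 0.11 among the lower ones. It exceeded 0.5 at 0 of the 14 and at 5 of the 54. There were 3.86 lower probes for each higher one at 1.5-fold, 1.44 at 1.25-fold and 1.01 at 1.1-fold. The split was 51 higher and 112 lower with an equal median absolute deviation, and turned to 430 higher and 365 lower under quantile normalization, which gives all 4 arrays 1 common spread.

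By kind of ID, 8 higher and 24 lower probes at 1.5-fold were among the 11986 Ensembl IDs (0.267%). Operon numbers beginning Rn3 held 6 higher and 25 lower of 24549 (0.126%). Those beginning R0 held 0 higher and 5 lower of 2413 (0.207%). In the blocked fit the shares called were 14.0%, 12.6% and 17.0%, against 13.3% of all probes. A gene can have more than 1 probe, so genes were not counted. Between probes with consecutive Rn3 numbers, the Engr-HDm means correlated at r = 0.115 over 22401 pairs.

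The 2 Engr-HDm arrays agreed poorly over all probes. They correlated at r = -0.11 (Spearman's rho = 0.195) over 38948 probes of 1 array design, and 20736 probes or 53.2% had the same sign on both, against 70.3% on the Engr-HD arrays. The difference of the Engr-HDm arrays, array 1 minus array 2 divided by 2, had an SD over probes of 0.121, larger than the 0.109 of their mean. With Engr-HD the order was the opposite, 0.0933 for the difference and 0.386 for the mean. This difference holds a dye bias along with anything else that sets the arrays apart. The plot of array 1 against array 2 shows a cloud along the diagonal and a tail into the corner where array 1 is high and array 2 low.

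**Figure D3:**
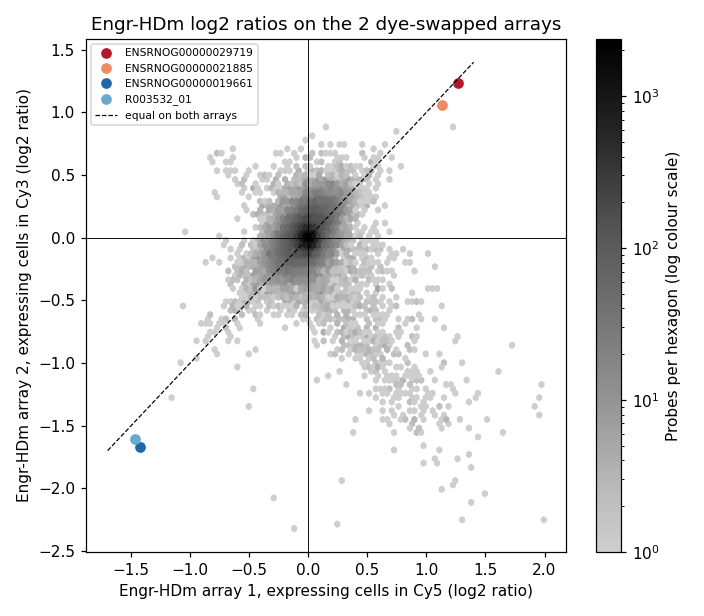
Log2 ratios of all 38948 probes on Engr-HDm array 1 (horizontal, expressing cells in Cy5) and array 2 (vertical, expressing cells in Cy3), shaded by the number of probes per hexagon, with the 4 named probes as coloured points. The named probes lie near the dashed line of equal values, while 224 probes are at least 1.5-fold higher on array 1 and at least 1.5-fold lower on array 2.

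That tail was nearly all on 1 side. The difference divided by 2 reached 2-fold at 118 probes, and all of the 118 were higher on array 1 than on array 2, which is the Cy5 side if the ratio runs as the titles name it. At 1.5-fold there were 361 such probes, of which 348 were on the Cy5 side and 13 on the Cy3 side. The 361 had medians of 0.70 on Engr-HDm array 1 and -0.98 on array 2. All 361 had a difference of the same sign between the Engr-HD arrays. The median difference divided by 2 was 0.83 with Engr-HDm, against 0.565 with Engr-HD. The 361 were picked on the Engr-HDm difference, so its larger size there is partly set by the choice. The Engr-HDm mean of the 361 was below 0 at 299 and above 0 at 62, with a median of -0.155. Of the 68 probes at 1.5-fold described above, 2 were among the 361, and 14 higher and 52 lower remained without them. The 68 had to have the same direction on both arrays, which only 2 of the 361 had. The small overlap therefore follows from the definitions and does not separate the 68 from a dye bias. Since each mean holds both orientations, a bias of the same size on both arrays drops out of it. Whether the bias was larger on array 2 was not tested.

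**Figure D4:**
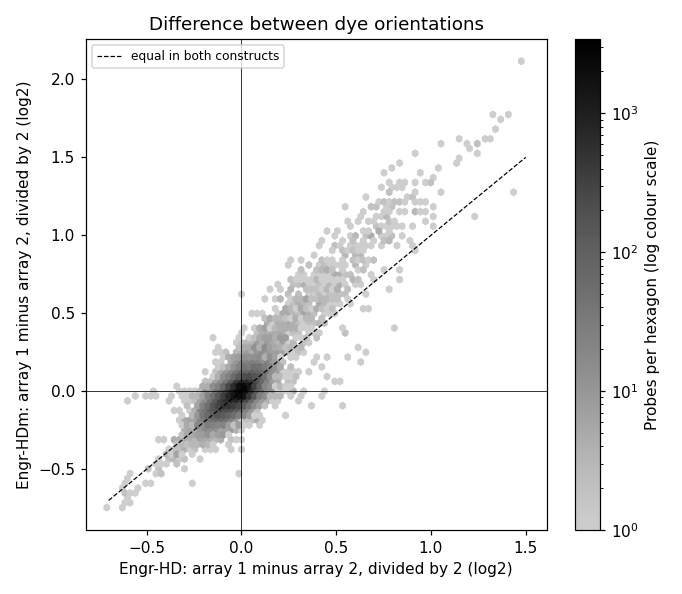
Array 1 minus array 2, divided by 2, on the log2 scale, for Engr-HDm (vertical) and Engr-HD (horizontal), with probes counted per hexagon. Positive values mean a higher ratio when the expressing cells were in Cy5. The Engr-HDm values reach 2.12 and the Engr-HD values 1.48, and most of the long tail lies above the dashed line of equal values.

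Probes picked on 1 Engr-HDm array were read on the others. The 303 probes at least 1.5-fold higher on array 1 had a median of -0.99 on Engr-HDm array 2, and 22 of them were above 0 there. On Engr-HD array 1, of the same dye orientation, their median was 0.375, and on Engr-HD array 2 it was -0.79. These probes therefore went with the array number, which is also the dye orientation, in both constructs. The 95 probes at least 1.5-fold lower on array 1 had a median of -0.52 on Engr-HDm array 2. There 75 of them were below 0 and 37 at least 1.5-fold lower. Their medians were -0.50 on Engr-HD array 1 and -0.13 on Engr-HD array 2, with 78 and 58 below 0. The 65 probes at least 1.5-fold higher on array 2 had a median of 0.14 on array 1, with 43 above 0. Their median was 0.337 on Engr-HD array 2 and -0.122 on Engr-HD array 1. The 498 probes at least 1.5-fold lower on array 2 had a median of 0.55 on array 1, with 66 below 0. Their median was -0.736 on Engr-HD array 2 and 0.17 on Engr-HD array 1. The medians of the 65 and the 498 thus also changed sign with the array number on the Engr-HD arrays.

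The difference between the Engr-HD arrays, divided by 2, was then taken off each probe of the Engr-HDm arrays. Array number and dye orientation coincide, so in this quantity a dye bias and other differences between the arrays cannot be told apart. The SD over probes of the remaining difference divided by 2 was 0.0649, against 0.121 before. The Engr-HDm arrays then correlated at r = 0.48 (Spearman's rho = 0.361), and 57.0% of probes had the same sign on both. This step leaves each mean as it was. At 1.5-fold, 14 higher and 57 lower probes then had the same direction on both arrays, against 14 and 54 before.

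The Engr-HDm means were also set beside the Engr-HD means of the same probes, which come from other arrays. Over all 38948 probes the 2 means correlated at r = 0.194 (Spearman's rho = 0.261). Over probes under 2-fold with Engr-HD the 2 means correlated at r = 0.29 (n = 37726 probes), and over those at least 2-fold at r = 0.035 (n = 1222). Probes with Engr-HD means from -1 to -0.585 had a median Engr-HDm mean of -0.10, against -0.001 over all probes. Their medians were -0.08 on each Engr-HDm array, and 73.3% had an Engr-HDm mean below 0. Those from -0.585 to -0.25 had a median of -0.06, those from 0.25 to 0.585 of 0.05 and those from 0.585 to 1 of 0.04. At the ends of the Engr-HD range the Engr-HDm medians were small, 0.02 among the 36 probes below -2 and 0.00 among the 142 above 2. The plot along the Engr-HD ratios shows medians of the Engr-HDm mean farthest from 0 at moderate Engr-HD changes. This does not hold for single arrays. Among the 36 probes below -2 the median was 0.16 on Engr-HDm array 1 and 0.002 on array 2. The quartiles of the Engr-HDm mean there were -0.174 and 0.229. The points share the array design, and each mean holds both dye orientations equally, which removes only a bias of the same size on both arrays. Between single arrays, same-numbered arrays of the constructs correlated at r = 0.214 (array 1) and 0.324 (array 2). Across numbers, r was -0.0616 for Engr-HDm array 1 with Engr-HD array 2, and 0.0102 for the reverse pair. How far an unequal bias enters the correlation of the means was not tested.

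**Figure D5:**
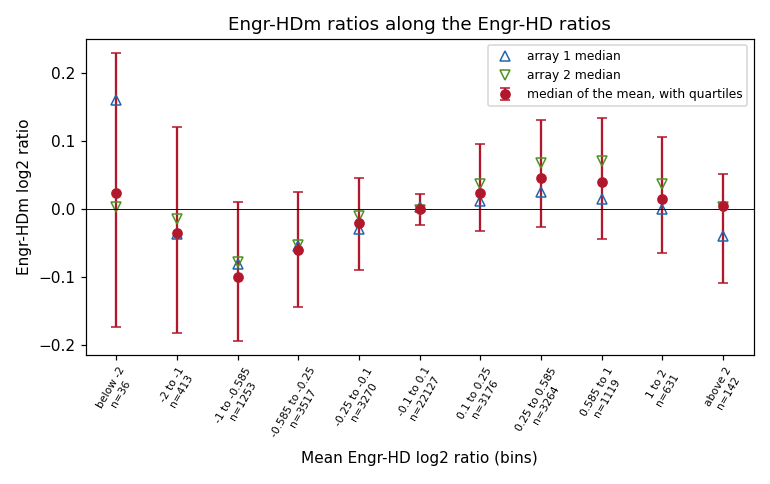
Engr-HDm log2 ratio (vertical) in 11 bins of the mean Engr-HD log2 ratio (horizontal), with the number of probes under each bin. Red points are medians of the mean of 2 arrays with quartiles, and open triangles are the medians of each Engr-HDm array. The median of the mean is lowest, at -0.10, for Engr-HD means from -1 to -0.585 and highest, at 0.05, from 0.25 to 0.585. The array 1 median is 0.16 in the bin below -2.

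Engr-HD changed in various ways at the 68 probes of 1.5-fold with Engr-HDm. Among the 14 higher probes, the Engr-HD mean had a median of -0.01 and ran from -1.19 to 0.62, and 1 rose and 4 fell with Engr-HD (limma, adjusted p below 0.05), or 35.7%, against 28.2% of all probes (14.2% rose and 13.9% fell). Among the 54 lower probes, the Engr-HD mean had a median of -0.21 and ran from -1.95 to 3.47, and 7 rose and 26 fell with Engr-HD, or 61.1%. The test of Engr-HD minus Engr-HDm passed at 12 of the 14 and at 30 of the 54, against 6656 of all probes (17.1%). These probes were picked for a large Engr-HDm value, which by itself favours a difference. The 4 arrays share 1 estimate of the spread at each probe, so the Engr-HD calls are not independent of the choice either. How far it enters their shares was not tested.

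At 7 of the 68 probes the Engr-HD mean was at least 2-fold as well. The extreme case, an Ensembl probe, read -0.70 and -0.72 on the Engr-HDm arrays, against 3.52 and 3.42 on the Engr-HD arrays. An Operon R0 probe read -0.61 and -0.59 with Engr-HDm, against 2.759 and 2.655 with Engr-HD. An Rn3 probe had the opposite signs, with 0.70 and 0.63 with Engr-HDm, against -1.353 and -1.035 with Engr-HD. At these 3 the constructs stood on opposite sides of 0 on every array, and each difference passed (limma, adjusted p from 0.00106 to 0.00398). The other 4 were lower with both constructs. The lowest of them with Engr-HD read -0.75 and -0.67 on the Engr-HDm arrays, against -1.92 and -1.97 on the Engr-HD arrays, and its difference of -1.24 passed (limma, adjusted p = 0.00187). Of the remaining 3, an Ensembl probe differed by -1.19 and an Rn3 probe by -0.96 between the constructs, and both passed (limma, adjusted p = 0.00237 and 0.0248). The last, an Rn3 probe, read -1.06 and -0.55 with Engr-HDm, against -1.33 and -0.90 with Engr-HD, and its difference of -0.31 did not pass (limma, adjusted p = 0.571).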

How the data were processed

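For each of 4 2-colour arrays the authors deposited a log ratio per probe, read here as log2. Per the labels, total RNA was amplified to aminoallyl RNA and coupled to Cy5 or Cy3, and each pair was hybridized to rat 70-mer probes. How the arrays were scanned, background-corrected and normalized, and the log base, are not given in the sources used here. In all, the table held 38960 rows, of which 12 were control rows. Columns were used as deposited, since the 2 Engr-HDm columns correlated above the limit of -0.3 for turning one. The reference table listed no Ensembl IDs, so 0 probes were named and the gene lists written for the design were not applied. The named probes are the 2 highest and 2 lowest Engr-HDm means among probes with the same direction on both arrays.

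Arrays were centred on their medians and tested with limma 3.58.1 in R 4.3.3 (lmFit, eBayes, two-sided, Benjamini-Hochberg over all 38948 probes). The 4 arrays were fitted together, each construct with its own coefficient, leaving 2 residual degrees of freedom. A fit with the array number as a replicate block, shared by both constructs, left 1. Per the labels, same-numbered arrays share a dye orientation, and array 1 minus array 2 correlated at r = 0.849 between the constructs. The code was tested on simulated data with known changes and the same dye bias in both constructs. The check was of the mean error of the estimates, not of the calls. The arrays, lists and tests were chosen with earlier results of these data known.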

Additional observations from a re-analysis of the deposited data

Results flagged for a closer look

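The results here stand out because the ratios differed between the constructs, by limma's test of Engr-HD minus Engr-HDm. In all, 6656 probes (17.1%) differed. Each construct was measured in its own cells and on its own arrays, so effects of construct, cells and arrays cannot be told apart. Among the named probes, Engr-HD minus Engr-HDm was -1.26 at ENSRNOG00000029719, -1.36 at ENSRNOG00000021885, 1.08 at ENSRNOG00000019661 and 0.96 at R003532_01 on the log2 scale. These 4 were picked for their Engr-HDm values, so a difference is partly set by the choice. A construct with 2 arrays is too small a group to look for an array far from the others.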

How the results depend on the processing

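With Engr-HDm, 0 probes passed without centring, under quantile normalization, robust empirical Bayes or number 2 arrays turned, with the Engr-HDm arrays alone and with any 1 array left out. Each fit with 1 array left out has 1 residual degree of freedom and assumes that the lone array varies like those of the other construct, so its counts are no check of stability. Scaling to an equal median absolute deviation gave 2 probes, against 5190 with the replicate block and 152 at a threshold of 0.1, and 9 with the dye swap as 1 replicate, a 2-fold minimum and no test. For Engr-HD minus Engr-HDm it was 4328, 12891, 8875 and 1191 under these settings in turn, 1819 under quantile normalization, 0 with number 2 arrays turned and 2162 to 2773 with 1 array left out. In place of 68 probes at 1.5-fold and 9 at 2-fold, scaling to an equal median absolute deviation made 163 and 22, and there were 795 and 144 under quantile normalization, and 359 and 117 with number 2 arrays turned. A single Engr-HDm array gave 398 to 563 and 77 to 183. Read as natural logs, the values gave 276 and 39, and read as log10, 3468 and 778, a choice made after seeing the data. Turning number 2 arrays, so that the mean becomes the difference of the arrays divided by 2, reversed ENSRNOG00000019661 to 0.121 and R003532_01 to 0.071 and left ENSRNOG00000029719 at 0.018 and ENSRNOG00000021885 at 0.037. Of 44 tested values of the named probes, 36 kept direction and side of the threshold, those 2 near-0 values included, 6 newly passed and 2 reversed. For the other shifts the cause was not tested. Brightness over background, which limits how far small ratios can be read, was not used here.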
